A study of Caenorhabditis elegans with 6 samples.

Results

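The ceh- genes (C. elegans homeobox) were examined in messenger RNA of whole wild-type N2 worms in their last larval stage, L4. Members were chosen by name alone: every gene of the count table whose sequence name pairs with a WBcel235 symbol made of ceh- and a number. This gave 61 genes of the 19512 in the table, and a further 2 annotated ceh- genes, ceh-8 and ceh-75, were not analysed here. All 6 cultures were wild-type and began as synchronized L1 larvae, about 10000 for a culture, fed for 28 hours on bacteria. The bacteria carried an empty vector in the 3 cultures labelled control and a construct making double-stranded RNA against elt-2, an intestinal GATA factor, in the 3 labelled elt-2 RNAi. Feeding RNAi acts through the diet on the whole animal, and each library pools many animals. Replicates carry the letters A, B and C, and the libraries labelled elt-2 RNAi, the labelled RNAi group, are called RNAi A, RNAi B and RNAi C here.

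Homeobox genes encode transcription factors that bind DNA through the homeodomain, a helix-turn-helix fold. They are best known for assigning positions along the body and identities to cells. In the worm, combinations of them distinguish the classes of neurons, and others act in the pharynx, the epidermis, the muscles, the gonad and the excretory cell. Many ceh- genes are used by few cells of the animal. In bulk RNA of whole worms, fewer cells of a type and less RNA per cell cannot be told apart.

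Total counts ranged from 16568515 to 24168901 in the labelled controls and from 29578175 to 35047530 in the labelled RNAi group, while the median count over all genes was 57 in control A and 11 in RNAi C. Factors of the trimmed mean of M-values (TMM), which rescale library size for such differences in composition, lay between 0.491 (RNAi C) and 3.47 (control A). CPM below are counts per 1000000 of the TMM-scaled library size unless library size alone is named. The target gene went against the labels. elt-2 had 233, 48 and 78 counts in controls A to C and 689, 111 and 3070 counts in RNAi A to C, which is 2.98 ± 1.31 CPM against 72.6 ± 92.8 CPM (SD, n = 3). Its log2 fold change was 4.60 (SE 1.16, edgeR quasi-likelihood adjusted p 0.0395), and permuting the labels exactly, two-sided, gave p = 0.1, the smallest that 3 against 3 libraries allow. Without RNAi C the value was 2.80 (adjusted p 0.135) and without control A the adjusted p was 0.104, so neither fit called it. With library size alone it was 2.56 (adjusted p 0.0512), and control A (14.1 CPM of library size) stood above RNAi B (3.69). Whether the labels or reads of the fed construct bear on these counts was not tested. Directions below are therefore between libraries as labelled.

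Most ceh- genes were read, few of them often. At least 1 count was found for 55, 54 and 45 of the 61 genes in controls A to C, and for 46, 44 and 43 in RNAi A to C. Over the whole table the detected share went from 84.3% in control A to 73.4% in RNAi C, and over the ceh- genes from 90.2% to 70.5%. With more than 3 counts asked for, the ceh- genes detected numbered 48, 46 and 36 in controls A to C and 34, 32 and 29 in RNAi A to C. The shallowest library, control A, thus held the most ceh- genes, and the deepest, RNAi C, the fewest. In control A the ceh- genes were detected more often than all genes at this limit (78.7% against 74.5%) and in RNAi C less often (47.5% against 61%), a difference that was described and not tested. The median ceh- gene had 54, 25 and 8 counts in controls A to C and 6, 4 and 3 in RNAi A to C.

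**Figure D1:**
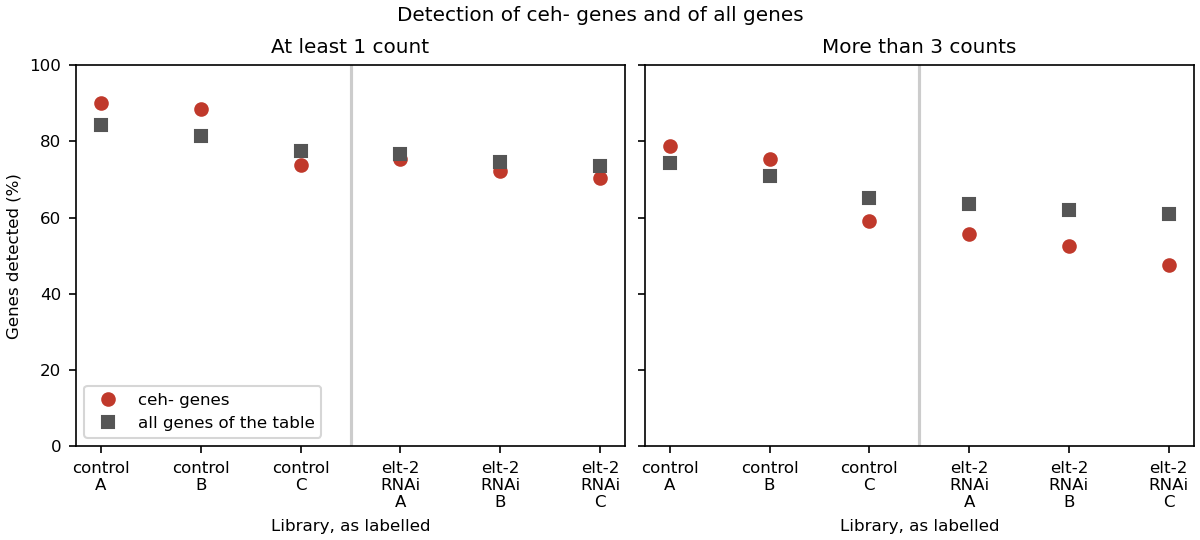
Share of genes detected in each library as labelled, in percent, with at least 1 count (left) and with more than 3 counts (right), for the 61 ceh- genes (circles) and all 19512 genes (squares). With more than 3 counts the ceh- genes span 47.5% (elt-2 RNAi C) to 78.7% (control A), and all genes span 61% to 74.5%.

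A count was present in all 6 libraries for 35 ceh- genes, 12 had 3 or fewer counts in every library, and ceh-84 had 0 counts throughout, which allows up to 0.0526 CPM in control A and 0.175 CPM in RNAi C (3 counts, counting error only). The other 11 of these 12 were ceh-7, ceh-9, ceh-12, ceh-14, ceh-16, ceh-28, ceh-54, ceh-76, ceh-81, ceh-87 and ceh-90. They include ceh-12, related to the motor neuron gene HB9, ceh-16, the engrailed gene of the epidermal seam, ceh-14, a LIM homeobox gene of neurons, and ceh-28, a gene of the pharyngeal neuron M4. At most 3 counts in each of RNAi A to C, with more in some control, were found for 13 genes (21.3%, against 10.6% of all genes), and the reverse for 0 (against 1.99% of all genes). At the other end, 26 genes had a mean of at least 1 CPM over the 6 libraries, and 5 exceeded 10 CPM in some library. The 12 highest means belonged to ceh-100, ceh-91, ceh-99, ceh-51, ceh-38, ceh-82, ceh-13, ceh-86, ceh-39, ceh-62, ceh-21 and ceh-20, from 20.8 CPM down to 2.40 CPM. The 3-prime-end reads were not divided by length in that order, and 9 of the 12 were also among the highest 12 in CPM per kilobase of exon. Per kilobase of exon the leading genes were ceh-51, ceh-99, ceh-82, ceh-91 and ceh-100, with 8.75, 6.27, 5.85, 5.66 and 4.90 CPM per kilobase.

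**Figure D2:**
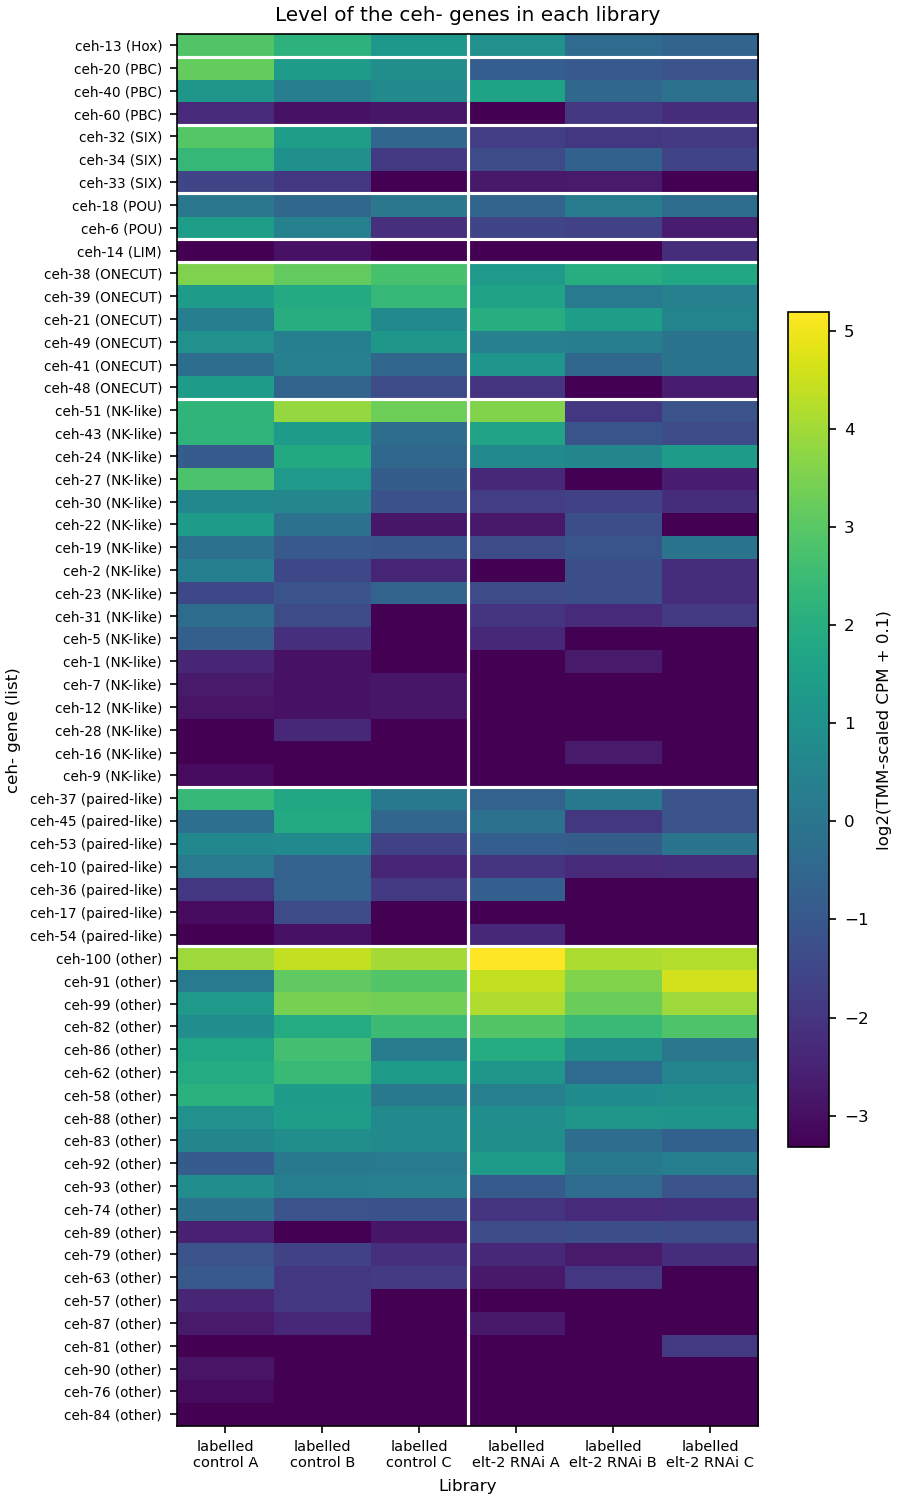
Level of each of the 61 ceh- genes, as log2(TMM-scaled CPM + 0.1), in the 6 libraries as labelled, with genes grouped by homeobox list and ordered by mean level within a list. The darkest cells are libraries with 0 counts, the brightest cell is ceh-100 in elt-2 RNAi A (36.4 CPM), and ceh-20, ceh-27, ceh-32 and ceh-34 are brightest in control A.

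Summed over all 61 genes the level was 126, 135 and 88.6 CPM in controls A to C and 136, 72.0 and 90.4 CPM in RNAi A to C. The groups overlapped, at 117 ± 24.8 CPM against 99.6 ± 33.1 CPM (SD, n = 3), and an exact two-sided permutation test of the log2 sums gave p = 0.7. The sum was carried by a few genes, ceh-100 alone giving 12.1% of the ceh- counts in control A and 26.7% in RNAi A. Of the 60 genes with a count, control A held the highest CPM for 27 and control B for 13. The share with its highest value in control A was 45%, against 34.2% of all genes. Counts were ordered control A over control B over control C for 30 ceh- genes (49.2%, against 37.6% of all genes). These shares stood above those of all genes, a difference that was not tested, and they do not measure the spread within the labelled controls.

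The labelled groups were compared for the 30 ceh- genes that passed the low-count filter. A gene entered with about 10 or more counts in at least 3 libraries, so a gene high in control A and B alone was left out. Of the 30, 8 were lower in the labelled RNAi group (edgeR, adjusted p under 0.10), where 15.9% of the 11474 genes tested were called lower. These were ceh-27, ceh-32, ceh-20, ceh-37, ceh-13, ceh-38, ceh-93 and ceh-62. Of them ceh-27, ceh-32 and ceh-20 reached the filter through the controls alone, as did ceh-23. ceh-13, ceh-37 and ceh-93 also needed the controls, since some libraries of the labelled RNAi group stood under the filter's level. The filter thus bears on the direction of these genes, and the count is a description. No member passed through the labelled RNAi group alone, and over all tested genes 6.43% passed through the controls alone and 0.619% through the other group alone. None was called higher, where 13% of all tested genes were. At an unadjusted p under 0.05 there was 1 higher gene, ceh-91, which DESeq2 called beside the same 8 lower genes (16% lower and 18.7% higher of all genes). The median log2 fold change was -0.69 over the 30 and -0.12 over all tested genes, a description only, since passing the filter depends on the levels. With library size alone the median gene moved to -1.77 and 19 of the 30 were called lower, against 52.4% of all genes, and 0 higher, against 3.82%. Without the most abundant 3% of genes in the library size 11 were lower and 0 higher, against 33.9% and 9.26%. The split of calls over all genes moved with the scaling, from 55.0% lower to 93.2% with library size alone and to 78.6% without the most abundant 3% of genes.

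Without the filter 60 members were tested and 10 were called lower, against 9.65% of 17958 genes, and 0 higher by edgeR, against 8.41% (2 had an unadjusted p under 0.05). The 4 added were ceh-48, ceh-6, ceh-34 and ceh-30, while ceh-93 and ceh-62 were lost. All 8 calls ended when RNAi C was left out. Without it no ceh- gene was called by edgeR (8 had an unadjusted p under 0.05), where 0.157% of all genes were called lower and 3.5% higher, although the log2 fold changes of the 8 genes stayed between -5.78 and -1.21. Without control A the called genes were ceh-20, ceh-27, ceh-32 and ceh-38, where 5.01% of all genes were lower and 9.01% higher. The same 4 were called without RNAi B (3.26% lower and 6.69% higher of all genes) and without both B libraries (8.36% and 7.57%). Leaving out RNAi A ended the calls of ceh-37, ceh-38, ceh-62 and ceh-93 and added ceh-43, ceh-48 and ceh-51, against 5.49% lower and 7.86% higher of all genes. Leaving out control B ended the call of ceh-62 and added ceh-24 as higher (14.2% and 11% of all genes). Without control C 40 members were tested, 14 were called lower and ceh-82 higher, against 18.3% and 15% of all genes. With the replicate letters as a block 5 members were called lower and 0 higher by edgeR, against 2.95% and 7.67% of all genes (1 higher member had an unadjusted p under 0.05). At an adjusted p under 0.05 edgeR called ceh-20, ceh-27, ceh-32 and ceh-38, where 5.88% of all genes were lower and 7.95% higher.

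**Figure D3:**
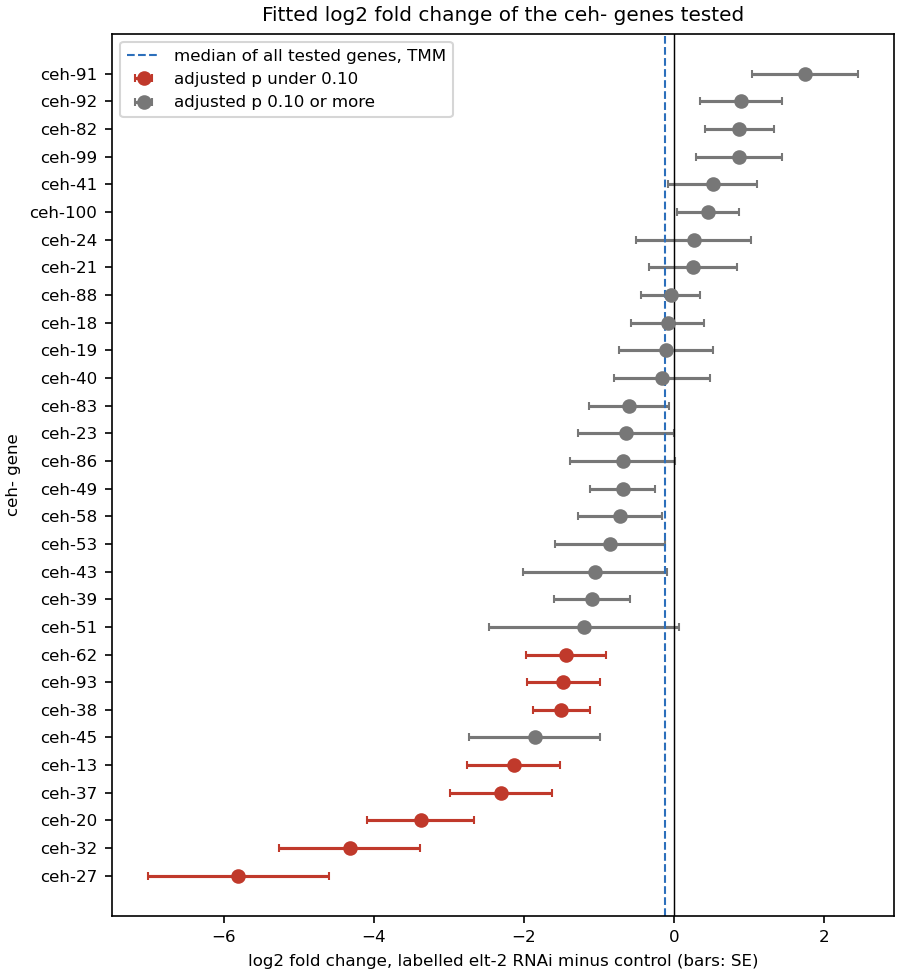
Log2 fold change of the 30 ceh- genes tested, labelled RNAi group minus libraries labelled control, with standard errors from the edgeR fit, and the median of all tested genes (dashed, -0.12). The 8 genes in red, from ceh-27 (-5.81) to ceh-62 (-1.44), have an adjusted p under 0.10, and ceh-91 (1.75) has the highest value.

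Among the Hox gene and its cofactors, ceh-13 and ceh-20 were lower in the labelled RNAi group. ceh-13 (R13A5.5; WBcel235 chromosome III, 7555660 to 7558041, plus strand), the labial-related Hox gene of the anterior body, had 415, 140 and 52 counts in controls A to C and 39, 13 and 10 in RNAi A to C. These were 7.28, 4.48 and 2.21 CPM against 1.89, 0.681 and 0.582 CPM. The lowest control stood just above the highest library of the labelled RNAi group. Its log2 fold change was -2.14 (SE 0.62, edgeR adjusted p 0.0555), and the call ended without control A (adjusted p 0.140), without RNAi B (0.154) and without RNAi C (0.210).

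ceh-20 (F31E3.1; chromosome III, 6979884 to 6981785, plus strand) encodes a PBC homeodomain protein related to Extradenticle and Pbx, which binds DNA together with Hox proteins. It had 510, 76 and 41 counts in controls A to C and 10, 8 and 6 in RNAi A to C. The levels were 8.95, 2.43 and 1.74 CPM against 0.485, 0.419 and 0.349 CPM. The labelled RNAi group lay close together, well under every control, while control A stood more than 3 times above the other controls. The log2 fold change was -3.38 (SE 0.71, edgeR adjusted p 0.0248), and without control A it was -2.40 (adjusted p 0.0395). ceh-20 passed the filter through the controls alone, which bears on its direction, so these values are a description.

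The other PBC genes were not called. ceh-40 had 125, 36 and 37 counts in controls A to C and 61, 12 and 14 in RNAi A to C, with a fitted log2 change of -0.16 (SE 0.64, edgeR adjusted p 0.868) whose sign changed in 3 of the 6 leave-one-out fits. ceh-60, which acts in the intestine on yolk protein genes of adults, had between 0 and 6 counts in a library, did not pass the filter and was not called without it (edgeR adjusted p 0.790). Its 3-prime end overlaps that of ets-4 on the other strand, and the use of strand was not stated.

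Of the sine oculis class, the genes with more than a few counts were concentrated in control A. ceh-32 (W05E10.3; chromosome V, 11701764 to 11705400, minus strand), related to optix of the fly and acting in head development, had 430, 81 and 14 counts in controls A to C against 4, 3 and 3 in RNAi A to C. In CPM this was 7.54, 2.59 and 0.596 against 0.194, 0.157 and 0.175. Every library of the labelled RNAi group was near the floor of 3 counts, and the controls themselves differed more than 10-fold. On the log2 scale the difference was -4.33 (SE 0.94, edgeR adjusted p 0.0273), and -3.22 without control A (adjusted p 0.0569). As for ceh-20, the filter was passed through the controls alone, so these values are a description. ceh-34, the sine oculis relative that specifies pharyngeal neurons, had 281, 57 and 4 counts in controls A to C and 6, 10 and 4 in RNAi A to C. Control C, at 0.17 CPM, lay below RNAi A to C (0.291, 0.524 and 0.233 CPM), the gene did not pass the filter, and the unfiltered fit gave -2.64 (SE 0.94, edgeR adjusted p 0.0954). Its neighbour ceh-33, 3616 bases away on the same strand, had at most 14 counts in any library.

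In the ONECUT class, several of whose members act in neurons, ceh-38 was lower and the others were mixed. ceh-38 (F22D3.1; chromosome II, 6951526 to 6955409, plus strand) had 656, 272 and 151 counts in controls A to C and 48, 73 and 56 in RNAi A to C. The levels were 11.5, 8.70 and 6.42 CPM against 2.33, 3.83 and 3.26 CPM, and the groups did not overlap. Over the 30 tested members the groups did not overlap for 7 lower and 1 higher gene, against 24.2% lower and 22.5% higher of all tested genes. The log2 fold change of ceh-38 was -1.50 (SE 0.38, edgeR adjusted p 0.0388), the smallest standard error of the 8 called genes. Its 3-prime end overlaps that of tra-2 by 26 bases on the other strand. tra-2 itself was not called (394, 256 and 145 counts against 172, 138 and 81, log2 fold change -0.07, edgeR adjusted p 0.897).

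ceh-48, a ONECUT gene used across the nervous system, had 143, 18 and 7 counts in controls A to C and 3, 0 and 1 in RNAi A to C. It did not pass the filter. Over the summed counts of each group, 168 against 4, the control level was 21.4 times the other (95% exact Clopper-Pearson interval 8.19 to 79.3, counting error only). Without control A, which held 143 of the counts, it was 6.49 times (2.24 to 25.7). The unfiltered fit, which depends on the prior count for such a gene, gave an adjusted p of 0.0507 (edgeR).

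The ONECUT genes ceh-41, ceh-21 and ceh-39 lie side by side on chromosome X on the minus strand, with 103 and 1137 bases between them. Their levels were not parallel. ceh-39, a signal of X chromosome dose in sex determination, had 2.51, 3.58 and 4.98 CPM in controls A to C and 2.86, 1.05 and 1.22 CPM in RNAi A to C (log2 fold change -1.10, edgeR adjusted p 0.154). It was called lower with at least 10 counts in every library (edgeR adjusted p 0.0932), with library size alone (0.0356) and when the most abundant 3% of genes were left out of it (0.0443), and in no other alternative (0.104 to 0.413). ceh-21 had 1.14, 3.87 and 1.57 CPM against 3.83, 2.62 and 1.34 CPM. ceh-41 had 0.737, 1.22 and 0.596 CPM against 2.13, 0.629 and 0.873 CPM. The groups overlapped for all of these. The fitted values of ceh-21 (0.25) and ceh-41 (0.51) were negative with library size alone and without the most abundant 3% of genes. ceh-49 had 1.88, 1.18 and 2.17 CPM against 1.21, 1.15 and 0.873 CPM and was not called (-0.69, SE 0.44, edgeR adjusted p 0.271). The CUT-class gene that RefSeq names ceh-44 is cone-1 in the annotation used here and therefore no member. It had 12, 8.19 and 5.27 CPM against 7.04, 6.55 and 6.92 CPM.

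Of 17 NK and NK-like genes 6 were tested. ceh-27 (F46F3.1; chromosome V, 11661549 to 11665102, minus strand), an NK-2 class gene, had the largest fitted difference of the tested ceh- genes. It had 382, 72 and 11 counts in controls A to C and 2, 0 and 1 in RNAi A to C, so that a whole group lay at the floor. The summed counts of 465 against 3 gave a control level 78.9 times the other (95% exact Clopper-Pearson interval 26.8 to 384, counting error only). Control A held 382 of these counts, and without it, a choice made after seeing the data, the ratio was 28.7 (lower limit of the interval 9.49) and the fitted value -4.66 (edgeR adjusted p 0.0556). The fitted log2 fold change, which depends on the prior count here, was -5.81 (SE 1.21, edgeR adjusted p 0.0241). ceh-27 also passed the filter through the controls alone, so its fitted values and adjusted p are a description. In CPM the controls had 6.70, 2.30 and 0.468, so control C stood closest to the other group.

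ceh-22, the NK-2 class gene of the pharyngeal muscles, had 2.49, 0.8 and 0.0425 CPM in controls A to C and 0.0485, 0.315 and 0 CPM in RNAi A to C. Control C was therefore as low as the labelled RNAi group, and the unfiltered fit did not call the gene (edgeR adjusted p 0.137). The Bar-type genes ceh-30 and ceh-31 lie 3096 bases apart on opposite strands. ceh-30, which keeps male-specific neurons alive, had 83, 45 and 8 counts against 4, 4 and 2, and ceh-31 had 40, 9 and 0 counts against 3, 2 and 3. For ceh-30 the groups did not overlap in CPM, and the unfiltered log2 fold change was -2.55 (SE 0.76, edgeR adjusted p 0.0585).

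ceh-51 and ceh-43 divided the libraries in another way. ceh-51, known for its role in early mesoderm, had 264, 441 and 231 counts in controls A to C but 245, 3 and 6 in RNAi A to C. RNAi A stood with the controls, at 11.9 CPM, and RNAi B and C were at 0.157 and 0.349 CPM. Its log2 fold change was -1.20 (SE 1.27, edgeR adjusted p 0.504). Without RNAi A, a fit named here after its value was seen, it was -5.15 (adjusted p 0.0187). That fit describes the split within the labelled RNAi group and is no test of the labelled groups. All of ceh-51 lies within emb-4 on the other strand, which had 486, 170 and 141 counts against 305, 253 and 217. emb-4 was called higher in the labelled RNAi group (log2 fold change 1.03, edgeR adjusted p 0.0710), and its part in the ceh-51 counts was not tested. ceh-43, the Distal-less gene of the anterior epidermis and of dopaminergic neurons, had 259, 77 and 17 counts against 63, 7 and 5. RNAi A was again nearer to the controls (log2 fold change -1.05, edgeR adjusted p 0.437). ceh-43 was called without RNAi A, a fit likewise named after its value was seen. ceh-24, an NK-2 class gene of a pharyngeal muscle and other muscle and nerve cells, was highest in control B, at 3.52 CPM, and lay between 0.456 and 2.5 CPM elsewhere. ceh-19 and ceh-23 had log2 fold changes of -0.11 and -0.64 (edgeR adjusted p 0.909 and 0.475), and ceh-1, ceh-2 and ceh-5 had at most 67 counts in any library.

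Of 7 paired-like genes 3 were tested and only ceh-37 was called. ceh-37 (C37E2.5; chromosome X, 14197372 to 14208000, minus strand), an Otx-type gene needed by the olfactory neuron AWB, had 287, 103 and 23 counts in controls A to C and 11, 19 and 6 in RNAi A to C. In CPM this was 5.04, 3.29 and 0.978 against 0.534, 0.996 and 0.349. RNAi B was slightly above control C, so the groups overlapped. Its fitted log2 fold change was -2.31 (SE 0.68, edgeR adjusted p 0.0576), and the call ended in 4 of the 6 leave-one-out fits, with adjusted p between 0.103 without RNAi B and 0.212 without RNAi C. The related ceh-36, which acts in the chemosensory neurons AWC and ASE, lies 10805 bases away on the same strand and had at most 17 counts. ceh-45, the Goosecoid-like gene, was highest in control B (111 counts, against 43 and 14 in control A and C and 17, 3 and 6 in RNAi A to C) and was not called (-1.86, edgeR adjusted p 0.161). ceh-53 had 83, 50 and 5 counts against 10, 9 and 15. ceh-10, related to Chx10, had 61, 17 and 2 counts against 3, 2 and 2 and lies within polq-1 on the other strand, and ceh-17, the Phox2-like gene, had 1, 9 and 0 counts against 0 in every other library.

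The POU genes went separate ways. ceh-6, which acts in the excretory cell, had 145, 39 and 3 counts in controls A to C and 5, 4 and 1 in RNAi A to C, with an unfiltered log2 change of -2.83 (SE 0.97, edgeR adjusted p 0.0877). ceh-18, the POU gene of the gonadal sheath, lay between 0.582 and 1.10 CPM in all 6 libraries. Its log2 fold change was -0.08 (SE 0.48, edgeR adjusted p 0.906), and the sign changed under DESeq2 and in 3 of the 6 leave-one-out fits. With library size alone ceh-18 was called lower (-1.79, edgeR adjusted p 0.0978).

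**Figure D4:**
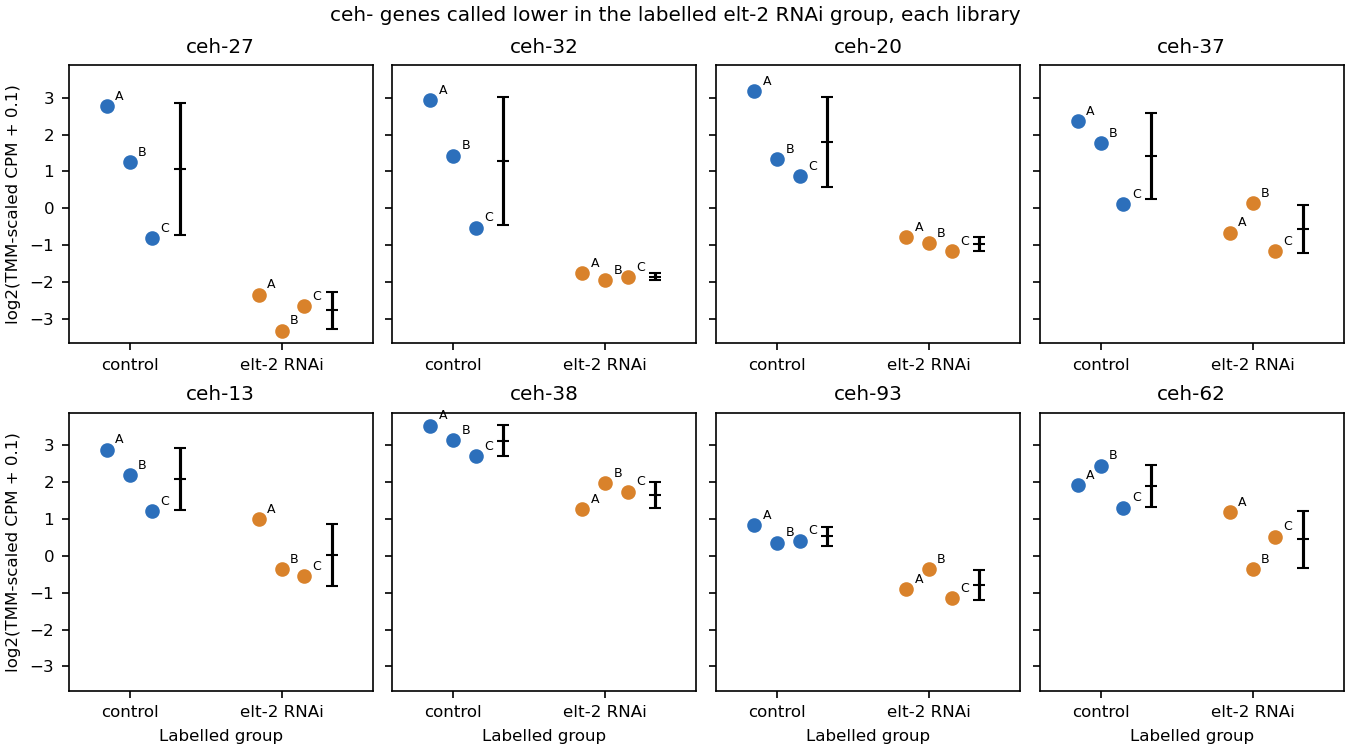
The 8 ceh- genes called lower in the labelled RNAi group, as log2(TMM-scaled CPM + 0.1) for each library (points, lettered A, B and C), with the mean and SD of each labelled group beside them (n = 3). Control A is the highest control for 7 of the 8 genes, and the groups overlap for ceh-37 only.

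The remaining 21 genes held the most abundant members. ceh-100 (Y38E10A.6; chromosome II, 12582178 to 12603680, minus strand) had 867, 655 and 386 counts in controls A to C and 750, 332 and 314 in RNAi A to C. In TMM-scaled CPM it had 15.2, 20.9 and 16.4 against 36.4, 17.4 and 18.3, so that RNAi A stood alone above 5 similar libraries. With library size alone control A was highest, at 52.3 CPM, against 25.4 CPM in RNAi A. It was not called (log2 fold change 0.46, SE 0.41, edgeR adjusted p 0.432), and the value was -1.10 with library size alone and -0.10 without the most abundant 3% of genes.

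ceh-91 (Y66A7A.5; chromosome III, 11616746 to 11623994, plus strand) differed in the direction opposite to the called genes. It had 59, 269 and 173 counts in controls A to C and 433, 224 and 414 in RNAi A to C. The levels were 1.04, 8.60 and 7.36 CPM against 21, 11.7 and 24.1 CPM, and the groups did not overlap. The log2 fold change of 1.75 (SE 0.71) missed the threshold (edgeR adjusted p 0.118). DESeq2 and the fit on genes with at least 10 counts in every library called it (adjusted p 0.0520 and 0.0943), and the other alternatives did not (0.114 to 0.512). With library size alone the value was 0.59, with overlapping groups, and without control A it was 1.13. At that count 18.8% of all genes were lower and 14.3% higher. In TMM-scaled CPM control A was the lowest library for ceh-91, as for ceh-99 and ceh-82. With library size alone control A was lowest for ceh-91 only, and for ceh-82 it was highest (5.85 CPM). ceh-99 had 2.32, 10.8 and 10.3 CPM against 17.9, 9.70 and 15.1 CPM, and ceh-82 had 1.70, 3.71 and 5.44 CPM against 7.42, 5.29 and 7.04 CPM. Neither was called (log2 fold changes 0.87 and 0.87, edgeR adjusted p 0.291 and 0.199), and both values were negative with library size alone, at -0.34 and -0.44. The rare ceh-89 had 4, 0 and 1 counts against 6, 6 and 5.

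Of the same 21 genes, ceh-62 and ceh-93 were called lower with small margins. ceh-62 (R06F6.6; chromosome II, 10805737 to 10808611, plus strand) had 3.68, 5.37 and 2.38 CPM in controls A to C and 2.18, 0.681 and 1.34 CPM in RNAi A to C, with a fitted difference of -1.44 (log2, SE 0.53, edgeR adjusted p 0.0927). ceh-93 (R04A9.5; chromosome X, 384385 to 388797, minus strand) was at 1.68, 1.18 and 1.23 CPM in the controls and at 0.437, 0.681 and 0.349 CPM in the other libraries, a fitted difference of -1.48 (log2, SE 0.49, edgeR adjusted p 0.0737). Each was called in only 1 of the 6 leave-one-out fits, ceh-62 without control C (adjusted p 0.0766) and ceh-93 without control B (0.0984). In the other 5 fits their adjusted p ran from 0.103 to 0.273.

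Of the rest, ceh-88 lay between 1.53 and 2.65 CPM in all libraries (log2 fold change -0.05, edgeR adjusted p 0.937), although it overlaps C49C3.6 on the same strand, so that its reads are uncertain. None of ceh-58, ceh-83, ceh-86 and ceh-92 was called (log2 fold changes -0.72, -0.60, -0.68 and 0.89), with edgeR adjusted p between 0.259 and 0.490. For ceh-86 control B was highest, at 6.17 CPM, and the value was 0.077 without both B libraries. ceh-74, which lies within cest-2.3 on the other strand, had 47, 11 and 8 counts against 3, 2 and 2, without overlap of the groups. The unfiltered fit did not call it (-1.97, edgeR adjusted p 0.126). cest-2.3 had 34, 3 and 4 counts in controls A to C and 1, 0 and 0 in RNAi A to C. Its part in the ceh-74 counts was not tested. ceh-57, 444 bases from ceh-58 on the same strand, had 5, 5 and 0 counts against 0 in the other group, while ceh-58 had 243, 76 and 23 against 25, 32 and 31. ceh-63 and ceh-79 had at most 24 counts in any library, and their groups did not overlap, with the lower values in the labelled RNAi group. The margin was of counts near the floor, for ceh-63 0.160 CPM in control B against 0.157 CPM in RNAi B. The unfiltered fit called neither (edgeR adjusted p 0.295 and 0.341).

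The ceh- genes were unevenly spread over the chromosomes, with 18 on X (29.5%, against 13.9% of all paired genes), 13 on II and 4 on IV (6.56% against 16.9%). The called genes lay on chromosomes II, III, V and X. Overlap with another protein-coding gene was annotated for 12 of the 61, and of the called genes for ceh-38 only.

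The same comparison was made for 38 other homeobox genes listed by name, of which 37 were in the table and 18 passed the filter. Of these, 9 were lower in the labelled RNAi group and 0 higher (edgeR, against 15.9% and 13% of all tested genes; no higher gene had an unadjusted p under 0.05). Of the 9, zag-1, vab-3, ttx-1, hmbx-1 and psa-3 reached the filter through the controls alone, so the filter bears on their direction. The others were dve-1, lin-39, nsy-7 and unc-62, of which dve-1 and lin-39 also needed the controls to pass. psa-3 and unc-62 encode Meis-type partners of PBC proteins, and lin-39 is the Hox gene of the midbody. lin-39 had 216, 63 and 29 counts in controls A to C and 10, 11 and 14 in RNAi A to C, with a fitted log2 change of -1.91 (SE 0.55, edgeR adjusted p 0.0527). vab-3, the Pax6 gene of the head, had 228, 46 and 18 counts against 1, 3 and 6 (-3.51, SE 0.87, edgeR adjusted p 0.0371). Control A was the highest library for both, at 3.79 CPM for lin-39 and 4 CPM for vab-3, as it was for ceh-20 and ceh-32. The Hox genes mab-5 and egl-5 were not called (-0.86 and -1.18, edgeR adjusted p 0.271 and 0.199), nor were php-3 (-1.46, edgeR adjusted p 0.108, groups not overlapping) and nob-1 (0.56).

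Markers of the tissues in which ceh- genes act were read beside them. The 10 neuronal markers, all with counts in every library, summed to 62.7, 68.1 and 47.3 CPM in controls A to C and to 74.6, 70.0 and 79.5 CPM in RNAi A to C, with 3 called lower and 1 higher. The 4 pharyngeal muscle markers summed to 51.1 to 65.9 CPM against 55.6 to 109 CPM, and 1 was called higher. The neuronal sums of the labelled RNAi group all stood above the controls, but the median log2 fold change of the 10 genes was -0.34, and the pharyngeal sums overlapped. Calls over all genes were 15.9% lower and 13% higher. Sums of the 5 epidermal markers, none at 0 in any library, were 205, 859 and 8739 CPM against 12156, 9348 and 14910 CPM, lowest in control A, where ceh-32 was highest, with 1 of 4 tested called lower. Body wall muscle markers (5 of 5 read) summed to 383, 801 and 1326 CPM in controls A to C. In RNAi A to C they summed to 1887, 1919 and 1953 CPM, with 0 called lower and 0 higher. Germline markers (6 of 6 read) summed to 138 to 416 CPM in the controls and 657 to 891 CPM in the labelled RNAi group, with 1 called lower and 1 higher. Sperm markers (5 of 5 read, 1 of them at 0 in a library) summed to 65.8 to 358 CPM against 454 to 637 CPM, with 1 called higher. Intestinal markers (8 of 8 read) summed to 468 to 1853 CPM against 1697 to 5190 CPM, with 1 called lower and 2 higher. The part of these tissue differences in the ceh- values was not tested.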

How the data were processed

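The values the authors deposited are counts of reads for each gene in 6 libraries, made by 3SEQ from the 3-prime ends of poly-A RNA. Bowtie 0.12.7 is named in the submitters' processing notes, and the study's own normalization was to uniquely mapped reads. The counting program, genome build, annotation and use of strand are not given in the sources used here. Symbols and positions come from WBcel235 (Ensembl release 115), which paired 19081 of 19512 sequence names (97.8%). No sequence of the genes was used here.

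Genes were filtered with filterByExpr and compared by edgeR 4.0.16 (R 4.3.3), two-sided, with TMM factors, group as the only term and Benjamini-Hochberg adjustment over 11474 genes, called at an adjusted p under 0.10. The SE of a log2 fold change is its size over the root of the F statistic. Alternatives were DESeq2 1.42.0, other library scalings, other low-count filters, a replicate block and leaving out libraries. Total counts were 16568515 to 35047530, and intervals cover counting error only, not the spread between libraries. The fit was also run on simulated counts with a dispersion shared by all genes and no outlying library. Since these data differ from that setting, the run does not vouch for the calls. The study's rank product was not run. The 3 cultures of a group are biological replicates per the study.

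The members, lists and alternatives were chosen with earlier results of these data known. Genes named in full were the called members, the 12 of highest mean CPM, ceh-13, and the ONECUT, PBC, sine oculis and POU genes. Others were named after their values were seen.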

Additional observations from a re-analysis of the deposited data

How the results depend on the processing

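The 8 ceh- genes called lower kept their direction under every alternative that could test them. This is a description, since the alternatives refit the same libraries and the filter bears on the direction of most of these genes. With at least 10 counts asked for in every library, ceh-20, ceh-27, ceh-32, ceh-37 and ceh-93 could not be tested. The number of members called lower was 19 with library size alone (these 8 and 11 others), 4 with at least 10 counts in every library (18 members tested, 3 of the 8 and ceh-39), 5 with a replicate block, 4 without both B libraries and 4 at an adjusted p under 0.05, and ranged from 0 to 14 when 1 library was left out. The 11 others with library size alone were ceh-18, ceh-19, ceh-23, ceh-39, ceh-43, ceh-45, ceh-49, ceh-53, ceh-58, ceh-83 and ceh-86. The number called higher was 1 under DESeq2 and 1 with at least 10 counts in every library. With a library left out it was 0 to 1 (ceh-24 without control B, ceh-82 without control C). Over all genes the lower calls numbered 6007 with library size alone, 3893 without the most abundant 3% of genes, 339 with the replicate block, 978 without both B libraries and 675 at an adjusted p under 0.05, with 20 to 2360 when a library was left out. The higher calls were 438, 1062, 880, 885 and 912 in the same order, and 445 to 1930. Libraries of the same letter did not deviate together from their group means, which does not show whether the cultures were set up in pairs. Correlations of same-lettered deviations were -0.21, -0.57 and -0.10, and the replicate block ended the calls of ceh-38, ceh-62 and ceh-93.

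Signs changed for genes that were not called. With library size alone ceh-100, ceh-99, ceh-82, ceh-21 and ceh-41 had -1.10, -0.34, -0.44, -1.11 and -1.04, and without the most abundant 3% of genes ceh-100, ceh-21 and ceh-41 had -0.10, -0.25 and -0.038. ceh-86 had 0.077 without both B libraries, and ceh-18 had 0.0024 under DESeq2. With a library left out ceh-21 ranged from -0.13 to 0.87, ceh-41 from -0.10 to 0.92, ceh-40 from -1.10 to 0.30 and ceh-18 from -0.31 to 0.17. The causes were not tested. The summed ceh- level differed by -0.26 (log2), by -1.72 with library size alone (exact permutation p = 0.2) and by -0.41 without ceh-100, a choice made after seeing the data. Low counts limit what can be said of the 31 genes that did not pass the filter, where 3 counts stand for 0.0526 to 0.175 CPM.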
